A study of Mus musculus with 8 samples.

Results

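The E proteins and the Id proteins that restrain them were described in early lymphoid progenitors lacking either of 2 E proteins. The members were the genes Tcf3, Tcf12, Tcf4, Id1, Id2, Id3 and Id4, and every probe set annotated to 1 of these symbols alone was taken. This gave 22 of 45037 non-control probe sets, and 7 of the 18193 genes that had a probe set of their own. The 8 Affymetrix microarrays held RNA of common lymphoid progenitors, the marrow cells from which B, T and other lymphoid cells arise. There were 4 arrays of E2A-KO cells (without the products of Tcf3), 2 of HEB-KO cells (without the product of Tcf12) and 2 of wild-type (WT) cells, all from C57bl/6 mice 10 to 13 weeks old. All 3 genotypes were sorted as LIN-, FLT3+, CD127+ and LY6D-, a gate that leaves out progenitors already carrying LY6D, a surface protein of cells moving towards the B lineage. Each sort pooled several marrows and each genotype had at least 2 sorts, so p-values rest on the spread between arrays of pools, which is not that between single mice. The labels do not settle whether the 4 E2A-KO arrays came from 4 separate sorts, so some may repeat a pool. Xist, a transcript of female cells, read 5.02 and 4.64 (log2) on E2A-KO arrays 1 and 3, against 11.61 and 11.14 on arrays 2 and 4. The Y-linked gene Eif2s3y read 8.34 and 8.21, against 3.27 and 2.63. Arrays 1 and 3 thus did not share a pool with arrays 2 and 4. On the HEB-KO and WT arrays both genes were high (Xist 9.63 to 11.18, Eif2s3y 6.38 to 8.19). The part of sex in the differences was not tested. The sources used here do not say how the alleles were made, which exons they remove or whether the loss is limited to blood cells.

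E proteins are basic helix-loop-helix transcription factors. They pair with one another or with other members of that class and bind the DNA motif called the E-box, with the letters CANNTG. Tcf3 encodes the E2A proteins E12 and E47, Tcf12 encodes HEB, and Tcf4 encodes E2-2, which plasmacytoid dendritic cells depend on. Id proteins have the helix-loop-helix part but no DNA-binding part, so a dimer of an E protein with an Id protein does not bind the E-box, and Id2 is known for its role in natural killer and innate lymphoid cells.

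The promoters of the genes whose levels the results turn on are shown first, to place the E-boxes around their starts. Of the 7 genes, 5 matched the RefSeq promoter table (GRCm38.p6), which gives 250 bases before and 50 after each start. Tcf3 lies on the minus strand with its window at chr10:80433586-80433885, and Id2 on the minus strand at chr12:25096043-25096342. For Tcf12, also on the minus strand, the window of the most upstream start, chr9:72111770-72112069, and that of the start inside the gene, chr9:71896047-71896346, are shown. The E-box is in capitals.
Tcf3: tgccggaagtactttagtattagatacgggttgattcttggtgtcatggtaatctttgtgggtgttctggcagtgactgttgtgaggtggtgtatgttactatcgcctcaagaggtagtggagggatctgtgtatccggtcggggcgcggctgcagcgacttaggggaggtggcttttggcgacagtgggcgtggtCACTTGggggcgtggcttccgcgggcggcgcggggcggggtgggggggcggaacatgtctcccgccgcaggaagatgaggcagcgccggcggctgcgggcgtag
Tcf12, upstream start: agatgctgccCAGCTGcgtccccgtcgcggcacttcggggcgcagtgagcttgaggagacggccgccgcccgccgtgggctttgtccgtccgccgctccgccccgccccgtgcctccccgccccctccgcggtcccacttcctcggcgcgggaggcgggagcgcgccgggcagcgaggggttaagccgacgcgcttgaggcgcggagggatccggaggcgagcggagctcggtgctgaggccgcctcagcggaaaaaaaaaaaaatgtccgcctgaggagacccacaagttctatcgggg
Tcf12, internal start: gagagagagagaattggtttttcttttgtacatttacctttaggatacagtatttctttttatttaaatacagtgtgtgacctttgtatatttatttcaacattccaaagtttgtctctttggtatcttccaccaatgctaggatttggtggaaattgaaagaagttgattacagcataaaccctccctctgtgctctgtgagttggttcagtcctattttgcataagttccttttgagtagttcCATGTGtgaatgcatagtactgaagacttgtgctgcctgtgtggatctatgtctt
Id2: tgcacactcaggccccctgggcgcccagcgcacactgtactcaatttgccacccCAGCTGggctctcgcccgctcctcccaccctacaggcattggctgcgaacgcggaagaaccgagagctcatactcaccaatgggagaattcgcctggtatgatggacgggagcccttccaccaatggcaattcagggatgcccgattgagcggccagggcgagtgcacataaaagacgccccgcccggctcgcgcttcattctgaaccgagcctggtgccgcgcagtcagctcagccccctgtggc

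Each of these windows holds 1 match to CANNTG, a motif that reads the same on both strands. The match begins 196 bases before the start in Id2 and 240 before the upstream start of Tcf12, with the letters CAGCTG in both. It begins 54 bases before the start in Tcf3 and 5 before the internal start of Tcf12. The Id3 and Id4 windows hold no match, and a further Tcf12 start holds 2. Among all 32851 promoter windows of this length 72.3% hold CANNTG and 16.3% hold CAGCTG, which also reads the same on both strands. The motif is therefore common, and a match is a description of the letters, not of a bound site.

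Values are log2 of the deposited intensities, differences are on the same log2 scale, and differences are taken between genotypes within a probe set. The place of a probe set on its array, as a percentile or against the array median, says only how far its signal lies from the dim end, since probe sets differ in how brightly they report. A probe set was called, and is said to have risen or fallen, at a Benjamini-Hochberg adjusted p under 0.05 over all 45037 probe sets in a limma model of all 8 arrays. E2A-KO cells differed from WT in 37 probe sets (31 lower, 6 higher), 0.0822% of those tested, and with only the brightest probe set per gene in 21, or 0.115%. Single arrays moved that count of 37, to 2 without WT 1 or E2A-KO 1, 3 without E2A-KO 2, 5 without either HEB-KO array, 6 without E2A-KO 4, 10 without WT 2 and 65 without E2A-KO 3. HEB-KO cells differed from WT in 0%, counted either way. At an unadjusted p under 0.05 there were 1404 of the 45037 probe sets, a share below 0.05, against 4580 for E2A-KO against WT. E2A-KO differed from HEB-KO cells in 1, which is 0.00222% of the probe sets and 0.0055% of the genes. The median SE was 0.225 for E2A-KO and 0.260 for HEB-KO cells against WT, so the number of arrays limits every value below. The hybridization control probe sets report how an array took up its sample and not the cells. They averaged 11.83 to 12.86 on the E2A-KO arrays, 10.72 and 11.92 on the HEB-KO arrays and 11.75 and 10.69 on the WT arrays. HEB-KO 1 and WT 2, the lowest, also read more Ly6d (7.52 and 7.83) than the other array of their genotype (3.63 and 3.53). Within E2A-KO the order was mixed: array 4 had the highest Ly6d (6.88) but a higher control level (12.68) than array 2 (12.30). Control level, genotype and the cells sorted therefore cannot be fully told apart, and the part of each was not tested.

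In E2A-KO cells Tcf3 fell and no other member was called. Its brightest probe set, 1426297_at, read 4.28, 3.71, 4.05 and 3.90 on the E2A-KO arrays, 8.57 and 8.44 on the HEB-KO arrays and 7.76 and 7.98 on the WT arrays. All 4 E2A-KO arrays lay far below the rest, near the middle of all probe sets on the array (mean percentile 51.0, against 89.6 in WT). The fall against WT was -3.89 (SE 0.19, adjusted p = 0.0017), which left 6.77% of the WT signal, a share that background can raise at this level, and no other probe set on the array had a smaller p in that comparison. Against HEB-KO cells it was -4.52 (SE 0.19, adjusted p = 5.17e-04), a call that was lost without WT 2 and HEB-KO 1, the arrays with the lowest hybridization controls (-4.45, adjusted p = 0.0566). The call against WT was lost with the hybridization control level as a covariate (-3.68, adjusted p = 0.1198) and without the same 2 arrays (-3.78, adjusted p = 0.1305).

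The remaining 2 probe sets of Tcf3 were dimmer and differed less. Probe set 1427764_a_at read 4.03, 3.72, 3.61 and 4.24 in E2A-KO cells, against 4.74 and 4.47 in WT, a difference of -0.70 (SE 0.23, adjusted p = 0.3913). Probe set 1452542_x_at, above its array's median on only 1 array, differed by -0.54 (SE 0.24, adjusted p = 0.4917). At both, every E2A-KO array was below both WT arrays. The position of the Tcf3 probe sets relative to the removed exons was not given.

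**Figure D1:**
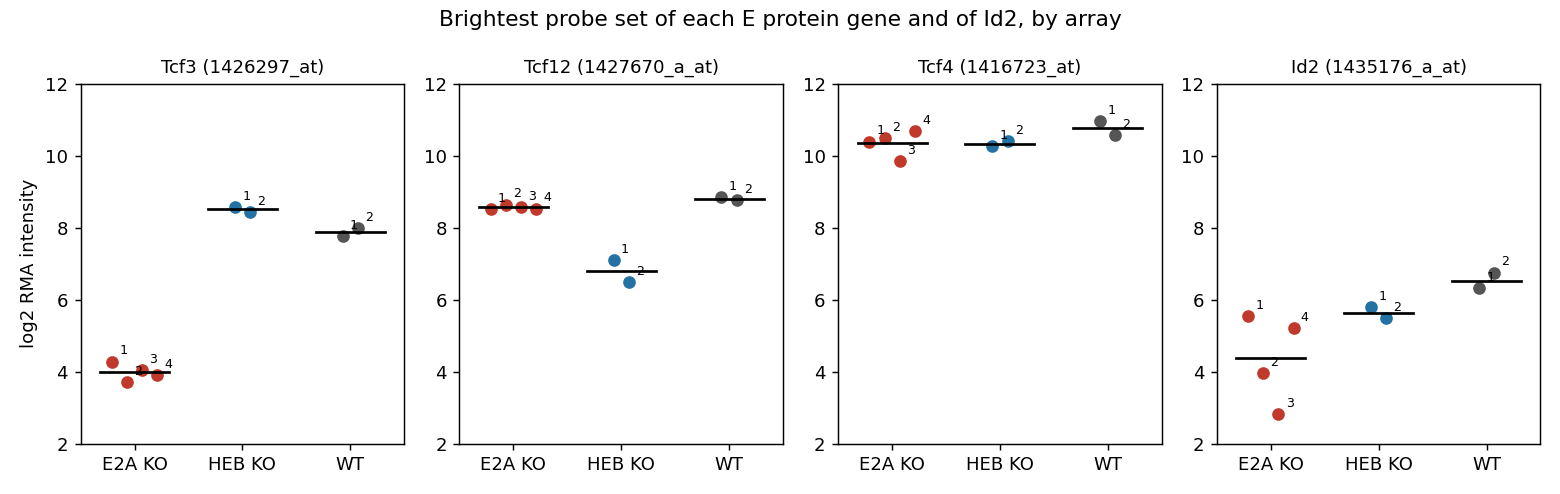
Log2 intensity (vertical axis) of the brightest probe sets of Tcf3, Tcf12, Tcf4 and Id2, 1 panel each, in E2A-KO, HEB-KO and WT cells; points are arrays with their numbers, and bars are genotype means. Tcf3 is lowest on the 4 E2A-KO arrays (3.71 to 4.28), Tcf12 on the 2 HEB-KO arrays (6.49 and 7.10), and Id2 spreads from 2.81 to 5.54 within E2A-KO.

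In HEB-KO cells Tcf12 was the member that stood lowest against WT, though no member passed the test. Its brightest probe set, 1427670_a_at, read 7.10 and 6.49 on the HEB-KO arrays, 8.52, 8.64, 8.56 and 8.53 on the E2A-KO arrays and 8.85 and 8.76 on the WT arrays. Both HEB-KO arrays lay below all others. The difference from WT was -2.01 (SE 0.22, 95% interval -2.52 to -1.51), which left 24.8% of the WT signal, and its p ranked first of all probe sets, but the adjusted p was 0.7218. HEB-KO cells still read Tcf12 well above the middle of the array (mean percentile 81.2, against 94.3 in WT). Between the knockouts, E2A-KO minus HEB-KO was 1.77 (SE 0.19, adjusted p = 0.0760). That difference passed the test under 3 other settings: with the brightest probe set per gene alone (adjusted p = 0.0372), with a trended and robust spread (0.0449) and with array weights (0.0418).

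The 5 Tcf12 probe sets did not behave alike. Probe set 1421908_a_at also read low in HEB-KO cells, 3.68 and 3.32, where the E2A-KO arrays read 4.35 to 4.46 and the WT arrays 4.37 and 4.43. Its HEB-KO minus WT difference was -0.90 (SE 0.18, adjusted p = 1.0). Probe set 1439209_at read 5.93 and 5.52 in HEB-KO cells, against 7.22 and 6.62 in WT, a difference of -1.19 (SE 0.49, adjusted p = 1.0). At both of these the HEB-KO arrays lay below the WT arrays. Probe set 1446294_at read 4.89 and 5.58 in HEB-KO cells, against 4.86 and 5.33 in WT, so these arrays overlapped, with a difference of 0.14 (SE 0.29, 95% interval -0.53 to 0.80).

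One Tcf12 probe set, 1439619_at, had its highest values in E2A-KO cells. It read 5.14, 6.05, 6.44 and 6.49 on the E2A-KO arrays, 3.62 and 3.94 on the HEB-KO arrays and 4.75 and 3.79 on the WT arrays. All 4 E2A-KO arrays were above the other genotypes, with array 1 closest to WT. The difference from WT was 1.76 (SE 0.42, 95% interval 0.80 to 2.72, adjusted p = 0.2316), and from HEB-KO 2.25 (SE 0.42, adjusted p = 0.1608), so neither passed the test. The difference from WT was 0.80 with the hybridization control level as a covariate. The Tcf12 transcript that this probe set detects was not given, so it was not tied to either of the starts printed above.

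**Figure D2:**
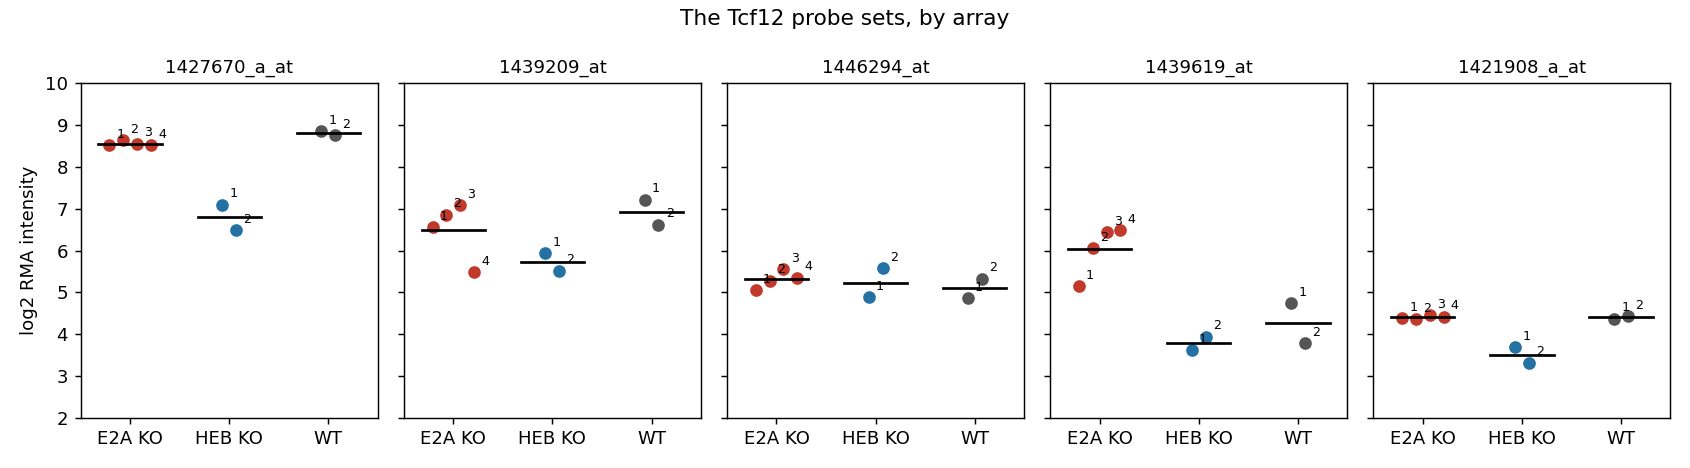
Log2 intensity of the 5 Tcf12 probe sets (1 panel each) on the E2A-KO, HEB-KO and WT arrays; points are arrays and lines are genotype means. At 1427670_a_at and 1421908_a_at the HEB-KO arrays lie lowest and E2A-KO lies close to WT, whereas at 1439619_at the 4 E2A-KO arrays (5.14 to 6.49) lie above the rest.

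Whether the remaining E proteins stood higher when another was missing was asked member by member. In E2A-KO cells the brightest Tcf12 probe set was not higher than in WT: its values, given above, lay just below both WT arrays, with a difference of -0.24 (SE 0.19, 95% interval -0.68 to 0.19, adjusted p = 0.6561). The upper end of that interval corresponds to 1.14 times the WT signal. The mean of all 5 Tcf12 probe sets had the opposite sign, 0.26 (adjusted p = 0.5318), with 1439619_at among them. The brightest Tcf4 probe set differed by -0.41 in E2A-KO cells (SE 0.25, 95% interval -0.99 to 0.16, adjusted p = 0.5948). These intervals are those of single probe sets and are not adjusted for their number.

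In HEB-KO cells Tcf3 read higher than in WT at all 3 of its probe sets, none of them called. At 1426297_at both HEB-KO arrays (8.57 and 8.44) were above both WT arrays (7.76 and 7.98), a difference of 0.63 (SE 0.22, 95% interval 0.12 to 1.14), or 1.55-fold. The unadjusted p was 0.0213, it ranked 527 among all probe sets, and the adjusted p was 1.0. The dimmer probe sets differed by 0.27 (SE 0.27) and 0.28 (SE 0.27). Without WT 2 and HEB-KO 1 the first of these 2 was -0.10. Across genotypes the order of Tcf3 at its brightest probe set was HEB-KO, WT and E2A-KO, with only E2A-KO apart by the test.

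Tcf4, the third E protein, read high in every genotype. At 1416723_at it read 10.39, 10.49, 9.84 and 10.68 on the E2A-KO arrays, 10.26 and 10.40 on the HEB-KO arrays and 10.95 and 10.57 on the WT arrays, among the brightest probe sets of each array (percentiles 97.6 to 98.9). The WT arrays had the highest and the third highest value, and E2A-KO overlapped WT. Genotype means were 10.35 ± 0.36 (SD, n = 4) in E2A-KO, 10.33 ± 0.10 (n = 2) in HEB-KO and 10.76 ± 0.27 (n = 2) in WT cells, and no neighbours in this order differed by the test. HEB-KO minus WT was -0.43 (SE 0.29, 95% interval -1.09 to 0.24), and E2A-KO minus HEB-KO was 0.02 (95% interval -0.56 to 0.59).

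The other 5 Tcf4 probe sets stayed within 0.37 of WT in E2A-KO cells and within 0.43 in HEB-KO cells, and none was called in any comparison. In HEB-KO cells all 6 had a negative difference, and at 5 of them both HEB-KO arrays lay below both WT arrays. The exception was 1424089_a_at, which read 9.01 and 8.19 in HEB-KO cells, against 8.60 and 8.95 in WT. Such a separation without overlap was common: 34.2% of all probe sets had it between HEB-KO and WT, in one direction or the other. In both knockouts the mean lay below WT at each of the 5 probe sets that were above the array median. That direction turned under other settings at 1434148_at in E2A-KO (0.13 without E2A-KO 3). It also turned at 1424089_a_at, to 0.39 in E2A-KO with the hybridization control level as a covariate and 0.24 in HEB-KO without HEB-KO 2. At 1434149_at in E2A-KO it was lost (0.00 without WT 1).

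**Figure D3:**
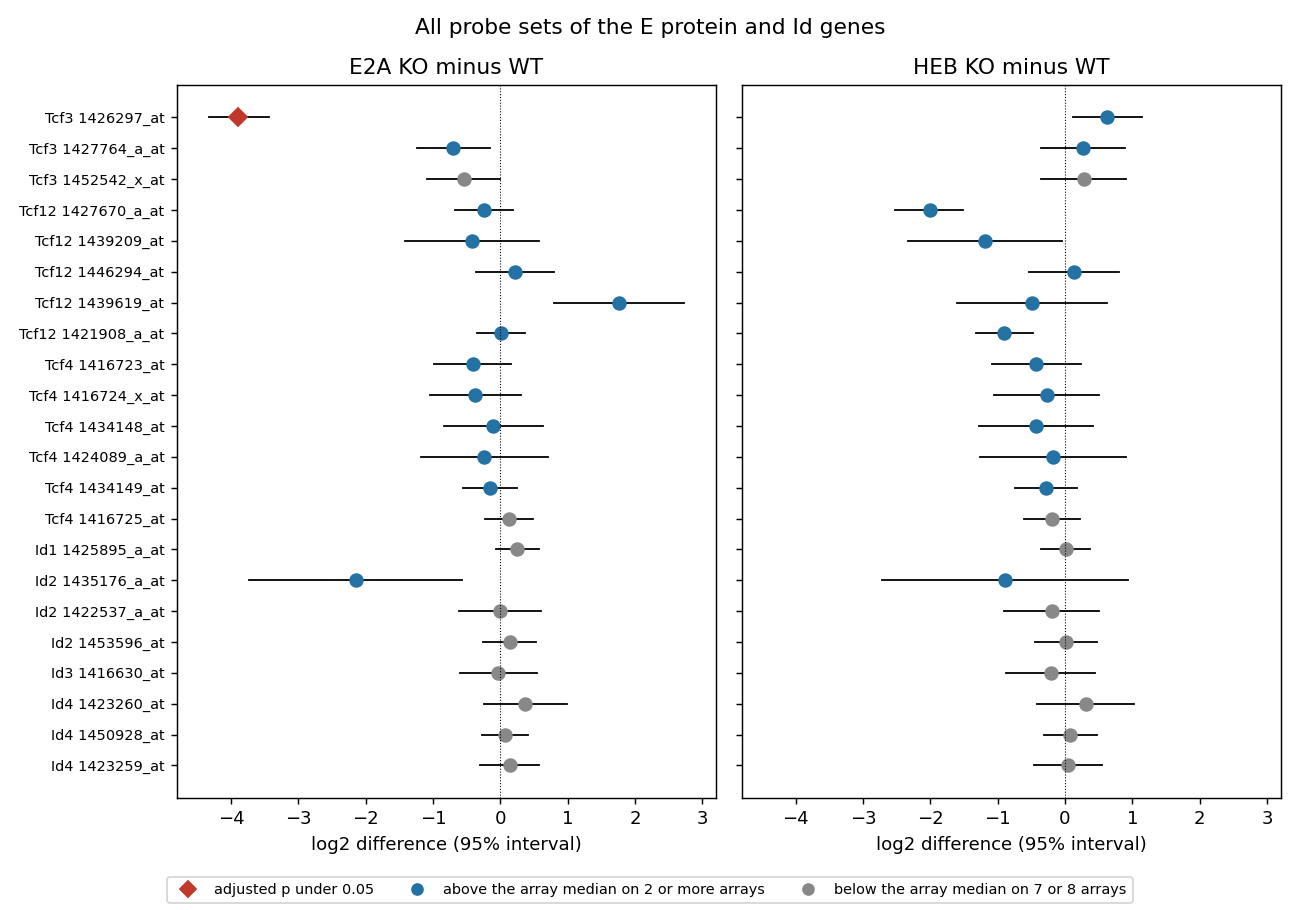
Log2 difference from WT (horizontal axis) with its 95% interval for all 22 probe sets, E2A-KO on the left and HEB-KO on the right; the red diamond marks the call, and grey points are probe sets at or below the array median on 7 or 8 arrays. Tcf3 1426297_at at -3.89 is the single call, and Tcf12 1439619_at (1.76) and Id2 1435176_a_at (-2.15) are the largest other differences in E2A-KO.

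Counted over all 22 probe sets, E2A-KO minus WT was called for 1, negative for 13 and had a median of -0.07, beside 0.072 over all probe sets. The arrays of the 2 genotypes did not overlap at 8 (5 lower and 3 higher), and 22.1% of all probe sets were apart in this way. The lower ones included every probe set of Tcf3, the gene whose products E2A-KO cells lack. HEB-KO minus WT was called for 0, negative for 13, with a median of -0.19 beside 0.019. In this comparison 11 did not overlap (9 lower and 2 higher), against 34.2% of all probe sets. Most of the lower ones were probe sets of Tcf12, whose product HEB-KO cells lack, or of the single gene Tcf4. E2A-KO minus HEB-KO was called for 1, with a median of 0.11 beside 0.065, and 8 did not overlap, against 23.3% of all probe sets. Most of those 8 were probe sets of Tcf3 or Tcf12. Both knockouts were set against the same 2 WT arrays, so their differences from WT are not independent. Fewer cells of a type and less RNA per cell cannot be told apart in these bulk samples.

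Among the Id genes, Id2 alone read above the array median, and it was lowest in E2A-KO cells without passing the test. Its brightest probe set, 1435176_a_at, read 5.54, 3.95, 2.81 and 5.21 on the E2A-KO arrays, 5.79 and 5.49 on the HEB-KO arrays and 6.31 and 6.75 on the WT arrays. All 4 E2A-KO arrays lay below both WT arrays but spread widely, and array 1 overlapped the HEB-KO arrays. The means were 4.38 ± 1.25 (SD, n = 4) in E2A-KO, 5.64 ± 0.21 (n = 2) in HEB-KO and 6.53 ± 0.31 (n = 2) in WT cells. E2A-KO minus WT was -2.15 (SE 0.69, 95% interval -3.73 to -0.57), with an adjusted p of 0.3732. It left 22.5% of the WT signal, a share that background can raise, since E2A-KO arrays 2 and 3 (3.95 and 2.81) lay near or below their array medians of 3.92 and 3.94.

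HEB-KO cells lay between the 2 other genotypes in Id2, and neither neighbour differed from them by the test. HEB-KO minus WT was -0.89 (SE 0.79, 95% interval -2.72 to 0.94, adjusted p = 1.0), with both HEB-KO arrays below both WT arrays. E2A-KO minus HEB-KO was -1.26 (SE 0.69, 95% interval -2.84 to 0.32, adjusted p = 0.5132). Across the alternative settings E2A-KO minus WT ran from -2.54 to -1.19 at this probe set, the smallest of them with the hybridization control level as a covariate, and none was called (lowest adjusted p 0.2224). The other 2 Id2 probe sets stayed below the median of every array and differed from WT by -0.01 and 0.14 in E2A-KO cells, so the difference at 1435176_a_at had no second bright probe set to be read beside.

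Id1, Id3 and Id4 had no probe set above the array median on any array. Id1 read 3.46, 3.56, 3.55 and 3.48 on the E2A-KO arrays, against 3.25 and 3.27 on the WT arrays, a difference of 0.25 (SE 0.14, adjusted p = 0.5597) at the percentiles 36.4 to 42.4 of the arrays. Its E2A-KO arrays were all above WT, and HEB-KO (3.22 and 3.32) overlapped WT. Id3, which thymocytes and B cells are known to switch on after receptor signals, read 2.73, 3.53, 3.38 and 3.15 in E2A-KO, 3.11 and 2.93 in HEB-KO and 3.02 and 3.44 in WT cells, all overlapping. The 3 Id4 probe sets differed from WT by 0.37, 0.07 and 0.14 in E2A-KO and by 0.31, 0.08 and 0.05 in HEB-KO cells. Signal this low can hide a change, so these values limit only what could be seen. Of the 22 probe sets 13 were above the array median on at least 2 arrays, 9 were not and 8 never were.

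The spread of Id2 within E2A-KO cells was set beside Ly6d, the transcript of the protein the gate selects against, a choice made after the values were seen. Ly6d read 6.75, 4.48, 4.26 and 6.88 on the E2A-KO arrays, 7.52 and 3.63 on the HEB-KO arrays and 3.53 and 7.83 on the WT arrays, so arrays of 1 genotype differed widely in a gene whose protein the gate selected against. E2A-KO arrays 1 and 4, with the higher Ly6d, had Id2 values of 5.54 and 5.21, and arrays 2 and 3 had 3.95 and 2.81. Within HEB-KO and within WT the array with more Ly6d also had more Id2, 5.79 beside 5.49 in HEB-KO and 6.75 beside 6.31 in WT. At Tcf4 1424089_a_at the arrays with more Ly6d were likewise higher, with 8.79 and 9.22 on E2A-KO arrays 1 and 4 and 8.41 and 7.74 on arrays 2 and 3, but at the other 4 Tcf4 probe sets above the array median the order was opposite in HEB-KO and WT, as at 1434148_at with 8.97 beside 9.21 in HEB-KO and 9.32 beside 9.72 in WT. The part of Ly6d level in the Id2 difference was not tested.

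**Figure D4:**
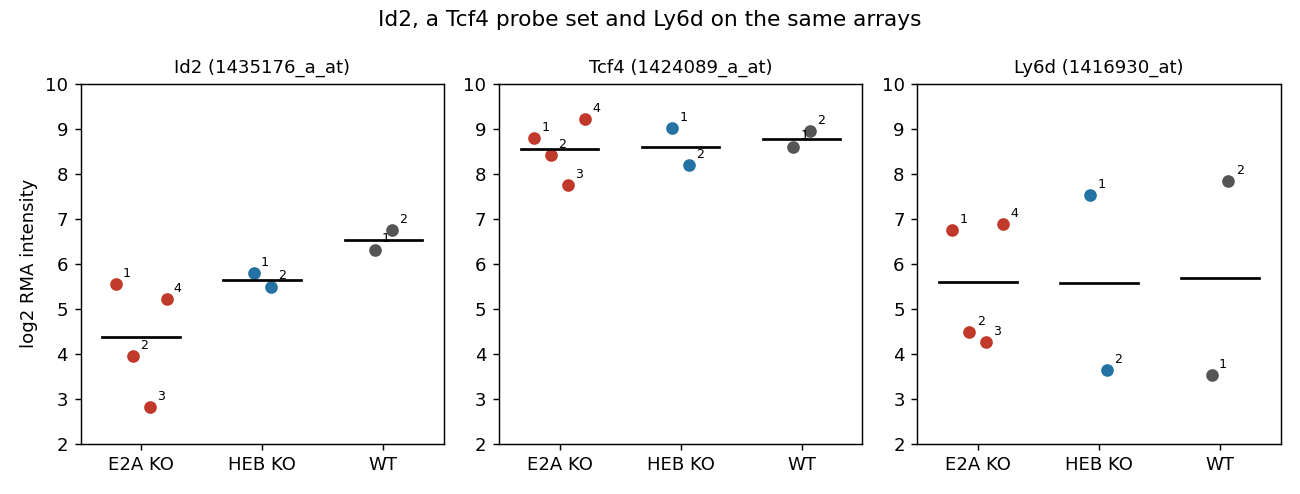
Log2 intensity (vertical axis) of Id2 1435176_a_at, Tcf4 1424089_a_at and Ly6d, 1 panel each, in E2A-KO, HEB-KO and WT cells; points are arrays with their numbers, and bars are genotype means. E2A-KO arrays 1 and 4 lie above arrays 2 and 3 in all 3 panels, and HEB-KO array 1 and WT array 2 lie above the other array of their genotype; the Tcf4 probe set shown was chosen for this order, which the other 4 above the array median do not have in HEB-KO and WT.

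Markers of cell types that use Id2 or Tcf4 were read beside these results. Of 12 measured natural killer and innate lymphoid markers 0 were called and 10 read higher in E2A-KO than in WT cells. Only 7 of the 12 were above the array median on at least 2 arrays. The median difference over the 12 was 0.29, beside 0.061 over all genes and -0.053 over genes above the array median. The mean level of the 12 markers per array was 4.36 to 4.81 in E2A-KO, 4.01 and 4.15 in HEB-KO and 4.04 and 4.18 in WT cells. Above the array median were 5 to 7, 5 to 6 and 4 to 5 of them. Of 11 plasmacytoid dendritic cell markers 0 were called, and 5 read lower in E2A-KO than in WT cells. Their mean was 5.84 to 7.14 in E2A-KO, 6.36 to 6.73 in HEB-KO and 6.18 to 6.62 in WT cells. It was lowest on E2A-KO array 3 and highest on array 4, where Tcf4 1416723_at was also lowest (9.84) and second highest (10.68). The other arrays had the opposite order. Within HEB-KO and within WT the array with the higher marker mean (6.73 and 6.62) had the lower Tcf4 (10.26 and 10.57). E2A-KO array 1, with a higher marker mean than array 2 (6.90 beside 6.27), also had the lower Tcf4 (10.39 beside 10.49). Among the plasmacytoid dendritic cell markers Cox6a2 had the smallest p. It read 7.33, 6.55, 6.75 and 7.43 on the E2A-KO arrays, 9.15 and 8.90 on the HEB-KO arrays and 8.45 and 9.18 on the WT arrays. Every E2A-KO array was lower (-1.80 against WT, SE 0.31, adjusted p = 0.1261). Ptprf differed the other way, by 1.47 (SE 0.54, adjusted p = 0.4317). The part of such cells in the Tcf4 and Id2 values was not tested.

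Lineage markers also differed between arrays of a genotype. The mean of 12 B-lineage markers, Ly6d among them, was 4.29 to 4.66 in E2A-KO, 5.97 and 4.82 in HEB-KO and 4.86 and 6.58 in WT cells. The mean of 15 granulocyte and monocyte markers was 5.60, 5.78, 7.07 and 5.37 on the E2A-KO arrays, 6.96 and 7.84 on the HEB-KO arrays and 6.01 and 6.44 on the WT arrays. E2A-KO array 3 thus had the highest granulocyte and monocyte mean of its genotype and the lowest Id2 (2.81). Without that array Id2 in E2A-KO minus WT was -1.63. Within HEB-KO the array with the higher granulocyte and monocyte mean (7.84) had the lower Id2, 5.49 beside 5.79. Within WT the array with the higher mean (6.44) had the higher Id2, 6.75 beside 6.31. The part of such cells in the Id2 difference was not tested. Markers of the gate were present on all arrays: Flt3 read 10.12 to 10.53 in E2A-KO, 11.05 and 10.50 in HEB-KO and 10.47 and 10.66 in WT cells. A list of sort markers of common lymphoid progenitors had 5 measured genes: Flt3, Il7r, Kit, Ly6d and Cd93. Kit and Cd93 are not among the markers of the gate given above, and LY6D was selected against. All 5 read lower in E2A-KO than in WT cells by their means (median -1.34). Flt3 (-0.24, SE 0.20) and Ly6d (-0.09, SE 1.47) had overlapping arrays. By the test 1 of the 5 was called. That was Cd93, a surface protein of early progenitors, which fell to 10.16 to 10.26 on the E2A-KO arrays, against 11.49 and 11.63 on the WT arrays (-1.34, SE 0.14, adjusted p = 0.0370). The Cd93 call was lost with the covariate (adjusted p = 0.4157), without the 2 low-control arrays (0.3575) and without any single array other than E2A-KO 3 (0.0908 to 0.2261). Il7r, which encodes CD127, differed by -2.15 (adjusted p = 0.0754) and Kit, a growth factor receptor, by -2.08 (adjusted p = 0.1678).

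Partners, cofactors and rival repressors of the E proteins gave no calls. Of 17 measured partners and LIM complex genes 0 were called in any comparison, with a median of 0.07 in E2A-KO minus WT, beside 0.061 over all genes. Lyl1, a basic helix-loop-helix partner of E proteins in blood progenitors, read 10.17, 10.24, 10.00 and 10.08 in E2A-KO, 11.01 and 10.88 in HEB-KO and 10.80 and 11.03 in WT cells. Its E2A-KO arrays lay below all others, by -0.79 against WT (SE 0.16, adjusted p = 0.1633). Lmo2, a LIM protein that bridges such dimers to other factors, differed by -0.62 (SE 0.23, adjusted p = 0.4320). Tcf21 and Msc differed the other way, by 0.57 (SE 0.16, adjusted p = 0.3052) and 0.34 (SE 0.15, adjusted p = 0.5043). Neither of these 2 was above the array median on any array. Of the 17 differences 7 were negative.

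Of 12 measured E-protein cofactors 0 were called, and 8 were lower in E2A-KO than in WT cells with a median of -0.29. Set against HEB-KO cells 11 of the 12 were lower in E2A-KO, with a median of -0.44 beside 0.010 over all genes and -0.163 over genes above the array median, as 11 of the 12 were. The acetyltransferase genes Crebbp and Kat2b differed from WT by -0.82 (SE 0.34) and -1.16 (SE 0.57), and the deacetylase gene Hdac1 by -0.58 (SE 0.28). Of 9 other repressors that bind the E-box 0 were called, and Zeb1 and Bhlhe41 differed from WT by -0.59 (SE 0.28) and 0.51 (SE 0.21) in E2A-KO cells. Bhlhe41 was dim, above the array median on only 1 array.

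Of 27 measured genes known as E-protein targets in lymphoid cells, 2 fell and 0 rose in E2A-KO cells against WT, and 21 differences were negative (median -0.24). Ccr9, a chemokine receptor that leads progenitors to the thymus, read 4.06, 2.74, 3.97 and 3.77 on the E2A-KO arrays, 7.98 and 7.05 on the HEB-KO arrays and 8.63 and 9.19 on the WT arrays. It was lowest in E2A-KO and lay between in HEB-KO cells, as Id2 did. Notch1, the receptor that starts T-lineage development, read 9.31 to 10.11 in E2A-KO cells, against 11.63 and 11.92 in WT. These fell by 5.28 (SE 0.42, adjusted p = 0.0192) and 2.09 (SE 0.25, adjusted p = 0.0430). With the hybridization control level as a covariate neither was called (adjusted p = 0.3899 for Ccr9 and 0.5201 for Notch1), nor without the 2 low-control arrays (0.1510 and 0.3625). The Ccr9 call was also lost without WT 1 (0.1292), WT 2 (0.0852), E2A-KO 1 (0.0782) or E2A-KO 4 (0.0568), and the Notch1 call without any 1 of the 8 arrays (0.0527 to 0.2665). In HEB-KO cells 0 of the 27 were called and 19 were negative.

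Of 28 regulators known to act upstream of Id genes 0 were called, with a median of -0.00 in E2A-KO minus WT. Zbtb16, which encodes a transcription factor of innate lymphoid precursors, read 5.35, 6.48, 5.58 and 5.47 in E2A-KO, 4.71 and 3.97 in HEB-KO and 4.22 and 4.16 in WT cells. All its E2A-KO arrays lay above the rest, by 1.53 against WT (SE 0.34, adjusted p = 0.2132). Stat5a, a signal transducer of the IL-7 receptor, differed by 0.66 (SE 0.26, adjusted p = 0.4550), and the repressor gene Gfi1 by -0.47 (SE 0.19, adjusted p = 0.4718).

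Genes with the profile nearest to a member were found by the root mean square difference over the 8 arrays, each profile centred on its mean, among 11959 genes above the array median on at least 2 arrays. For Tcf3 these were Gbp8 (0.62), Arpp21 (0.67) and Ccr9 (0.81), where the profile of Tcf3 itself had a root mean square of 2.12. For Id2, with 1.20 of its own, they were Ighv14-2 (0.41), Mettl7a1 (0.46) and Crebrf (0.46). Crebrf read 7.41, 6.46, 4.77 and 7.15 on the E2A-KO arrays, against 7.83 and 7.83 on the WT arrays. Its order on the E2A-KO arrays was that of Id2, which its choice as a near profile favours. For Tcf12, with 0.82, they were Fam228b (0.36), Trmt13 (0.44) and Cblb (0.45). Cblb read 6.70 and 6.07 on the HEB-KO arrays, against 7.98 and 7.17 on the WT arrays, an order that follows from its choice as a near profile.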

How the data were processed

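The sorted cells' RNA (RNeasy Micro kit) was amplified over more than 1 round and labelled with biotin, per the labels' protocols. The deposited intensity values were made with RMA, per the submitters' processing notes, which name neither its version nor the chip definition. They were linear, so log2 was taken without a further normalization. Of 45101 probe sets 64 were controls; of the rest 34945 named 1 gene, 932 several and 9160 none in the platform annotation used here. All 8 arrays entered a single two-sided linear model in limma 3.58.1 under R 4.3.3, with 1 mean for each genotype, 5 residual degrees of freedom and no filter. The probe set with the highest mean over the arrays stood for its gene. Lists were described by counts: of each, called genes or up to 4 with the smallest p in E2A-KO against WT were eligible for naming. Flt3, Il7r, Kit and Ly6d were named after their values were seen. The members and lists were chosen with earlier results of these data known. In simulated data with known changes over all 45037 probe sets, 4-fold changes were recovered in 72.1% for E2A-KO against WT, 54.8% for HEB-KO against WT and 69.4% for E2A-KO against HEB-KO. Each of 5 simulated sets held 200 changed probe sets, of 2-, 4- or 8-fold, with normal noise drawn independently for each probe set and array. Variation shared by the probe sets of an array was therefore absent, so these rates need not hold for the real arrays. No array was left out, and no pair of arrays was identical. An exact permutation test of 1 value cannot go below p = 0.133 (4 against 2 arrays) or 0.333 (2 against 2). Alternatives covered the probe set filter, 1 value per gene, normalization, moderation, array weights, the arrays in the fit, a replicate block, the hybridization control level, the log scale and each array left out; leaving out both low-control arrays and a crossed pairing were chosen after seeing the data.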

Additional observations from a re-analysis of the deposited data

How the results depend on the processing

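Of 1216 member values recomputed under the alternatives, gene means included, 5 lost a call and 3 gained one. A further 78 changed sign, 14 of them by more than the SD within genotypes. Of the values with an unadjusted p under 0.05 or a call, 0 changed sign. Sizes moved more: against WT in E2A-KO cells the covariate gave -1.19 for Id2 1435176_a_at (main value -2.15) and 0.80 for Tcf12 1439619_at (1.76). Means over all probe sets of a gene were -1.71 for Tcf3 and -0.67 for Id2 in E2A-KO, and -0.89 for Tcf12 in HEB-KO. In E2A-KO against WT 1 member probe set was called (Tcf3 1426297_at), as it was without each array in turn (1 to 1), and 0 were called with the hybridization control level as a covariate (-3.68, adjusted p = 0.1198) or without WT 2 and HEB-KO 1, chosen after seeing the data (-3.78, adjusted p = 0.1305). At that probe set the difference ran from -3.99 to -2.97, the smallest with log2(value + 16). In HEB-KO against WT 0 were called under every setting run, and Tcf12 1427670_a_at ran from -2.36 to -1.71. In E2A-KO against HEB-KO 1 was called, 2 (Tcf3 and Tcf12) with the brightest probe set per gene, with a trended and robust spread or with array weights, and 0 without WT 2 and HEB-KO 1 (Tcf3 -4.45, adjusted p = 0.0566). The cause of these changes was not tested.

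Replicate numbers were not shown to pair the arrays. Deviations of same-numbered arrays correlated at -0.217 (HEB-KO and WT), -0.109 and -0.096 (E2A-KO and WT) and 0.155 and -0.014 (E2A-KO and HEB-KO). The 2 arrays of a genotype deviate from their mean as mirror images. Crossed HEB-KO and WT arrays therefore had to give 0.217, and these values cannot settle the pairing. With the replicate block, which left 2 residual degrees of freedom, 0 member probe sets were called in E2A-KO against WT (Tcf3 -3.88, adjusted p = 0.1624), 0 in HEB-KO against WT and 0 in E2A-KO against HEB-KO (Tcf3 -4.51, adjusted p = 0.2284). The crossed pairing of HEB-KO and WT arrays called 0.

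The count over all probe sets for E2A-KO against WT, 37, was 58 with a trended and robust spread, 77 with array weights, 21 with log2(value + 16), 5 with only the compared genotypes and 0 with the block, the covariate or the low-control arrays left out. That for E2A-KO against HEB-KO, 1, reached 22 with a trended and robust spread, and that for HEB-KO against WT was 1 without WT 2. Where leaving out an array left a genotype with 1, that array was assumed to vary like the others. Signal near background limits Id1, Id3 and Id4, Tcf3 and Id2 in E2A-KO cells, and the 2 arrays each of HEB-KO and WT cells limit every comparison.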
